A study of Mus musculus with 12 samples.

Results

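The interferon regulatory factors are a family of transcription factors, and 8 of them were sought by gene symbol in expression tables of sorted mouse spleen B cells: Irf1, Irf2, Irf3, Irf4, Irf5, Irf7, Irf8 and Irf9. A row was found for 7 of the 8 among 43613 named items, and Irf8 was not analysed here. The 12 libraries formed 4 groups of 3, and all came from 6-month-old female mice on the C57BL/6J background that carried the lupus susceptibility interval Sle1b. In 2 groups the mice were B6.Sle1b, and in the other two they were B6.Sle1b.IFNaR1-/-, which also lack, per the label, the type I interferon receptor subunit IFNAR1; these are called Ifnar1KO. From each genotype, germinal centre (GC) B cells (B220+GL7+CD95+) and non-GC B cells (B220+GL7-CD95-) were sorted from pools of splenocytes. No library without Sle1b was compared, and nothing in the labels ties the 3 libraries of a group to different animals, so p-values only reflect the variation among these libraries, part or all of which may be technical. The comparisons ask what sets GC B cells apart from non-GC cells in a strain prone to autoimmunity, and what losing the type I interferon signal changes.

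Each factor of the family has a conserved DNA-binding domain that reads repeats of GAAA, as found in the interferon-stimulated response element (ISRE). IRF3, IRF5 and IRF7 are activated by kinases below nucleic acid sensors and switch on interferon genes. IRF9 joins STAT proteins in the complex that carries the type I interferon signal to the ISRE, while IRF1 is induced by interferon-gamma and IRF2 competes with it for the same sites. IRF4 and IRF8 are the lymphoid members: they bind DNA with partners such as PU.1, SPIB and BATF, and in B cells IRF4 is needed for both the start of the germinal centre and the plasma cell programme, between which its level is known to be low.

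The promoters of the family were searched for elements of this kind. RefSeq start sites on GRCm38.p6 were found for all 7 factors, and the 250 bases before each start (9 windows, since Irf1 and Irf9 have 2 each) were searched on both strands for 4 short motifs: GAAANNGAA, the core of the ISRE; GGAANNGAA, a core shared by ETS and IRF factors; TTCNNNGAA, the STAT-binding element GAS; and TGANTCA, the AP-1 site. Matches lay in the windows of 2 of the 7 genes, Irf1 and Irf2. The window of Irf1 that holds a match (its other window holds none), the window of Irf2, and that of Irf4, the factor with the lowest adjusted p, are shown from 5′ to 3′ with the matches in capitals.
Irf1, chr11:53769764-53770013, plus strand: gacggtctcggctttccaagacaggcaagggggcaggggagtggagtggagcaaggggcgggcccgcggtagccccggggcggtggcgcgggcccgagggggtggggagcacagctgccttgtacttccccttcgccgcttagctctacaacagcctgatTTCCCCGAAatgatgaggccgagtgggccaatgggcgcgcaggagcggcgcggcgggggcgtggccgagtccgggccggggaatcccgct
Irf2, chr8:46739495-46739744, plus strand: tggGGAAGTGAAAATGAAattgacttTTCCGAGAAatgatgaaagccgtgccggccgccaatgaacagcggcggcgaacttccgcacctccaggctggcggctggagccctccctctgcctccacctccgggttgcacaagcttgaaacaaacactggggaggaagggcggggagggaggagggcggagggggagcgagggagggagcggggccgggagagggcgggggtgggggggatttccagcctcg
Irf4, chr13:30748983-30749232, plus strand: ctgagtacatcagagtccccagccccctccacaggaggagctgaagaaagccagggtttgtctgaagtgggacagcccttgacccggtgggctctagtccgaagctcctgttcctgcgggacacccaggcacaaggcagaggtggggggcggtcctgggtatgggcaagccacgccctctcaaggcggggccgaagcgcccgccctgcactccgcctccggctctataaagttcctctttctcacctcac

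The capitals in the Irf1 window are a GAS match, TTCCCCGAA, which begins 90 bases before the start. In the Irf2 window the ETS-IRF core match GGAAGTGAA begins 247 bases before the start and overlaps the ISRE core match GAAAATGAA, which begins at 241 bases, so the capitals run through both. A GAS match, TTCCGAGAA, follows at 224 bases. Among 32851 mouse promoter windows of the same length, 7.13% held the ISRE core, 6.99% the ETS-IRF core, 7.02% the GAS and 6.75% the AP-1 motif. The share that held any of these motifs was not computed. The 2 of 7 genes with a match are therefore not read as a trait of the family. A match describes the letters only; binding was not measured.

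Expression was measured as FPKM, that is fragment numbers scaled to transcript length and library size, and set on a log2(FPKM + 1) scale for testing, which understates differences of low values. Libraries were compared within each of 3 batches, which are named in the deposited tables and hold 1 library of each group, because each table had been normalized by itself. The 4 libraries of batch 3 stood apart: the cytoskeletal transcript Actb was at 5.78 and 11.5 FPKM in its GC libraries and at 286.5 to 738.7 FPKM in batches 1 and 2, and Ifnar1KO GC of batch 3 had 5324 genes at 1 FPKM or more against 8328 to 11775 in the other libraries. One read on 1 kb of effective transcript was worth 0.119 to 0.404 FPKM. The sort was visible in the markers: 7 GC genes, among them S1pr2 and Mki67, summed to 222.8 to 817.6 FPKM in the GC libraries of batches 1 and 2 and to only 5.72 to 15.7 FPKM in their non-GC counterparts, whereas in batch 3 the sums were 18.4 and 19.8 FPKM for GC and 11.0 and 16.5 FPKM for non-GC. Ifnar1 itself, the labelled target, did not follow the label. It was at 51.1 and 69.1 FPKM in the libraries labelled Ifnar1KO non-GC of batches 1 and 2, against 14.5 and 36.0 FPKM in Sle1b non-GC. It was at 14.1 and 15.4 FPKM in those labelled Ifnar1KO GC, against 8.11 and 9.88 FPKM in Sle1b GC. In batch 3 it was lower in the libraries labelled Ifnar1KO, 2.58 against 3.45 FPKM in non-GC and 0 against 6.80 FPKM in GC cells. Where reads fall relative to the disrupted part of the gene is not given, so this value does not settle the label. Each direction drawn for Ifnar1KO below is that of the libraries labelled so.

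Because FPKM is per length, the family can be ranked within a library. In batches 1 and 2, the row that holds Irf9 together with its neighbour Rnf31 (median 113.2 FPKM, range 36.5 to 506.1 over 8 libraries) and Irf2 (median 56.9 FPKM, range 29.5 to 107.6) took the first 2 places in every library. Irf4 followed in places 3 and 4 (median 35.3 FPKM, range 16.7 to 62.7), then Irf3 (median 19.9, range 14.6 to 26.8), Irf5 (median 15.0, range 5.34 to 23.7) and Irf1 (median 14.0, range 7.45 to 16.98). Irf7 was the lowest by median at 4.44 FPKM, with a range of 0.121 to 15.3 FPKM. The ranges of neighbours in this order overlapped throughout, so the order by median is not set beyond the spread of the libraries. In batch 3 only Irf2 (5.22 to 20.7 FPKM), Irf4 (0.275 to 4.52 FPKM) and the Irf9 row (1.88 to 10.4 FPKM) were above 0 in all 4 libraries; Irf5 was listed at 0 in all 4, Irf1 and Irf7 in 3 and Irf3 in 1.

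**Figure D1:**
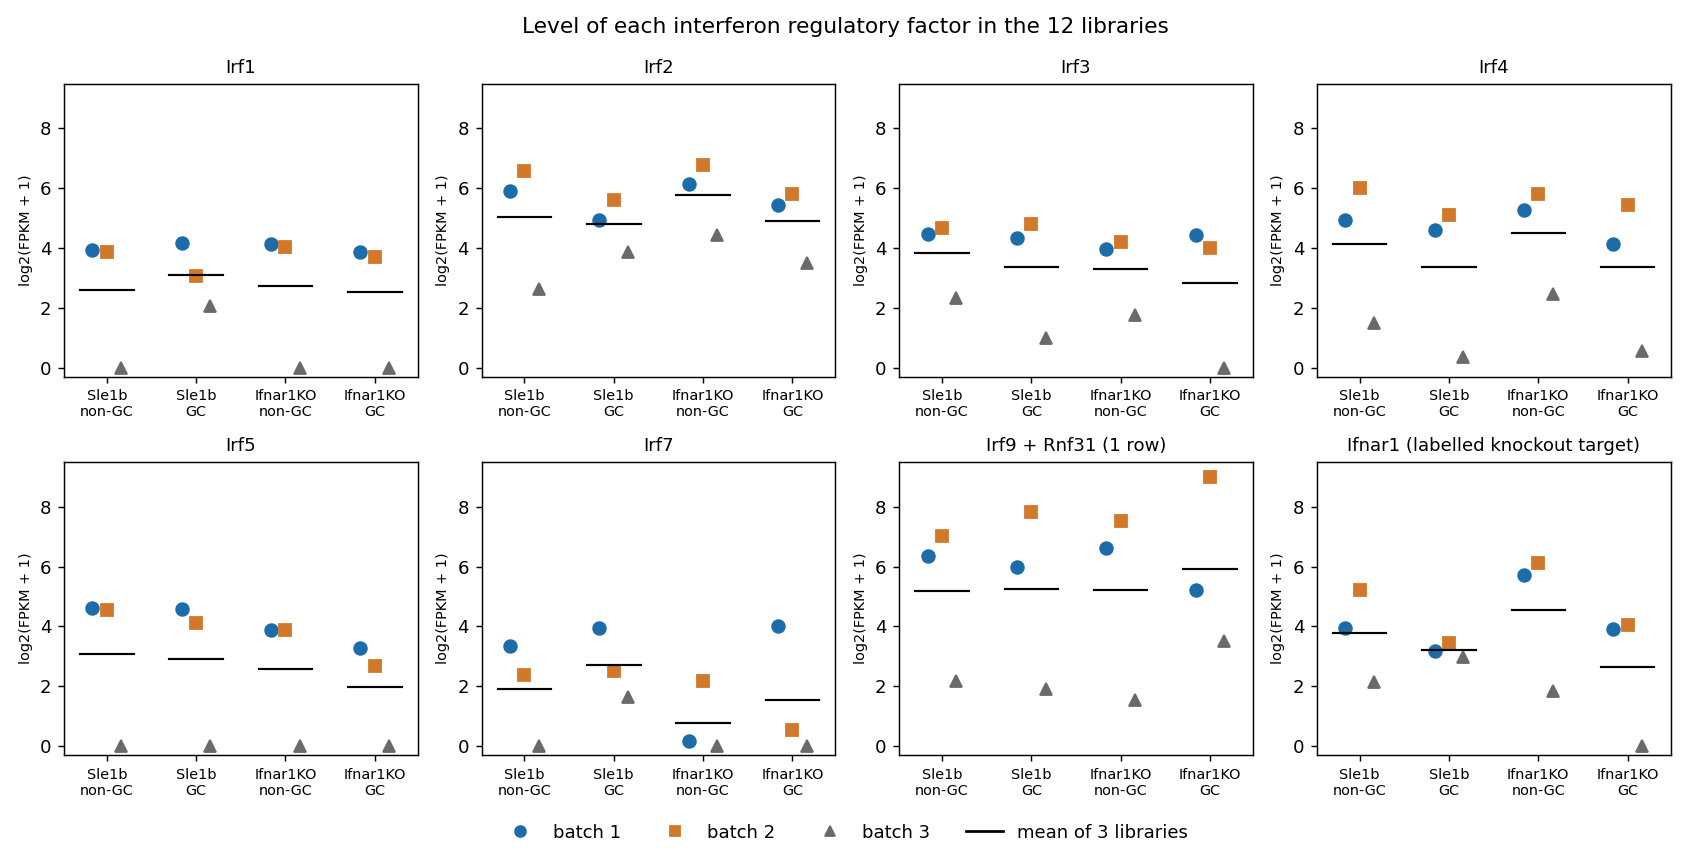
Each panel shows log2(FPKM + 1) of 1 gene in the 12 libraries (circles, batch 1; squares, batch 2; triangles, batch 3), with a line at the mean of the 3 libraries of a group; the last panel is Ifnar1. Batch 3 lies below batches 1 and 2 in every group of every panel, Irf5 is at 0 in all 4 libraries of batch 3, and the Ifnar1KO groups of batches 1 and 2 are not low in Ifnar1.

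None of the factors passed the test in any comparison. The linear model (limma, 14607 genes, batch as a block) gave 7 comparisons, hence 49 tests of the 7 factors, of which 0 had an adjusted p under 0.05 (the lowest was 0.211) and 2 an unadjusted p under 0.05, both for Irf4. The number that passed among all genes depended on batch 3: for the mean of both genotypes, GC against non-GC, 4 genes were called with all libraries, 562 of 12257 without batch 3 and with the filter redone, and 404 with sample weights. None of them was one of these factors. Of the genes tested with all libraries, 0% were called for GC against non-GC in Sle1b, 0.00685% in Ifnar1KO and 0.0274% (4 genes) for the mean of both genotypes, and 0% for Ifnar1KO against Sle1b in non-GC cells, in GC cells and over both, and for the interaction of genotype and cell type. At an unadjusted p under 0.05 the shares were 9.5%, 12.3% and 17.5% for the GC comparisons, 1.66%, 6.57% and 3.95% for the genotype comparisons, and 3.74% for the interaction. Standard errors of the 7 factors ran from 0.36 to 0.60 on the log2 scale for the comparisons averaged over both groups. Differences well above 1 SE could not be resolved either: Irf4, GC against non-GC, was at -0.96 (SE 0.36) and had an adjusted p of 0.211.

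Irf4, the lymphoid factor that drives the plasma cell programme at high level, was lower in the GC library of all 6 pairs. In Sle1b, non-GC libraries had 29.5, 62.7 and 1.81 FPKM in batches 1, 2 and 3, and GC libraries 23.2, 33.3 and 0.275 FPKM. In Ifnar1KO, non-GC libraries had 37.3, 55.3 and 4.52 FPKM and GC libraries 16.7, 42.1 and 0.481 FPKM. The GC library was the lower one of its batch and genotype each time, although across batches the groups overlapped. In batch 3 the GC values of Irf4 rest on about 4.4 and 14.5 reads. B cell transcripts in general were lower there: 6 B cell markers summed to 19.9 and 22.7 FPKM in the GC libraries against 207.9 and 221.5 FPKM in the non-GC libraries. The 8 T cell markers summed to more than the B cell markers in these GC libraries, 73.7 and 26.8 FPKM, against 6.24 and 8.09 FPKM in the non-GC libraries. Actb was at 5.78 and 11.5 against 120.4 and 109.8 FPKM. The fitted mean difference was -0.96 (SE 0.36; unadjusted p = 0.0205, adjusted p = 0.211) against a median of -0.25 over all genes, and it did not pass. Among all genes tested, 5.82% were lower in GC in all 6 pairs, and Irf4 was 1 such gene of the 7. By genotype the difference was -0.79 (SE 0.51) in Sle1b and -1.13 (SE 0.51; unadjusted p = 0.0464, adjusted p = 0.399) in Ifnar1KO, and the interaction, -0.34 (SE 0.73, adjusted p = 0.992), did not pass. In batches 1 and 2 alone, the mean difference was -0.68 (SE 0.30, adjusted p = 0.199). Irf4 showed no common direction between genotypes: Ifnar1KO was above Sle1b in 4 pairs and below in 2, with a mean difference of 0.20 (SE 0.36).

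Irf4 is also a plasma cell gene, and the plasma cell markers did not all move one way. The 5 markers with a row, of 6 listed, summed to 28.3 and 43.6 FPKM in Sle1b non-GC and 108.9 and 63.3 FPKM in Sle1b GC of batches 1 and 2, and to 35.0 and 43.2 FPKM in Ifnar1KO non-GC and 48.3 and 68.9 FPKM in Ifnar1KO GC. The sums were higher in the GC libraries, but Slamf7, which is not limited to plasma cells, made up most of them there. Xbp1, a factor of the secretory programme, was lower in GC in 3 of these 4 pairs, as Irf4 was in all 4. It went from 16.6 to 10.8 and 22.5 to 12.1 FPKM in Sle1b and from 17.6 to 6.73 FPKM in Ifnar1KO of batch 1, with 20.5 and 23.5 FPKM in batch 2. Sdc1, the surface marker CD138, was lower in GC in 3 of the 4 as well and at most 3.90 FPKM, and Tnfrsf17 was at 0 in 11 of the 12 libraries. Prdm1, another of the 5 markers, went the other way and was higher in GC in all 4 pairs. It went from 1.36 to 2.77 and 0.141 to 7.42 FPKM in Sle1b, and from 0.485 to 7.41 and 0.428 to 2.17 FPKM in Ifnar1KO. In batch 3 it was at 0.298 FPKM or less. Its mean difference in the linear model was 1.25 (SE 0.46, adjusted p = 0.203), which did not pass. Batch 3 had sums of 4.23 FPKM in non-GC and 10.6 FPKM in GC libraries of Sle1b, and of 9.64 and 3.60 FPKM in those of Ifnar1KO. The part of plasma cells in the Irf4 values was not tested. In bulk samples, fewer cells of a type and less RNA per cell cannot be told apart.

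Among the genes that IRF4 and IRF8 are tied to in B cells, Pax5, the factor that maintains B cell identity, had the lowest difference between cell types, -1.33 (SE 0.56, adjusted p = 0.250), and it did not pass the test. Of the 12 genes of that list, 2 were above and 10 below 0, with a median of -0.44 against -0.25 for all genes, and 0 were called in either direction; 4 had an unadjusted p under 0.05. For the DNA-binding partners, 10 of 11 listed genes were tested: 2 were above and 8 below 0 with a median of -0.43, 0 were called and 2 had an unadjusted p under 0.05. Under upper quartile scaling the medians of the fate genes and the partners were -0.18 and -0.17 and that of all genes was 0.010. The extremes of the partners were the AP-1 subunit Junb (1.11, SE 0.51) and the Ikaros family factor Ikzf3 (-1.11, SE 0.48). Between genotypes, the median of all genes was -0.12 and 39.5% were above 0. The fate genes had a median of 0.054 (7 above and 5 below 0), and the highest was Bach2, a repressor of plasma cell fate, at 0.62 (SE 0.60). The partners had a median of 0.070 (6 above and 4 below 0), from the AP-1 subunit Jund at -1.12 (SE 0.48) to Ikzf1 at 0.58 (SE 0.52), and 0 genes of either list were called, with 0 and 1 at an unadjusted p under 0.05.

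Irf2, which can repress the sites that IRF1 activates, was lower in the GC library of 5 of the 6 pairs. Its Sle1b non-GC libraries had 58.8, 95.4 and 5.22 FPKM in batches 1, 2 and 3, and its Sle1b GC libraries 29.5, 48.2 and 13.7 FPKM. In Ifnar1KO the non-GC libraries had 69.1, 107.6 and 20.7 FPKM and the GC libraries 42.2, 55.0 and 10.2 FPKM. Only the Sle1b pair of batch 3 went the other way. The mean difference was -0.55 (SE 0.39, adjusted p = 0.486) over all batches and -0.90 (SE 0.26, adjusted p = 0.0829) in batches 1 and 2, where GC was lower in all 4 pairs; neither passed. Of all genes, 18.1% were lower in GC in those 4 pairs, and 3 of the 7 factors were: Irf2, Irf4 and Irf5. Under upper quartile scaling, which moved the median of all genes by 0.26, the difference of Irf2 became -0.29 (SE 0.40).

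Between genotypes, Irf2 was higher in Ifnar1KO in the 4 pairs of batches 1 and 2, by 0.23 and 0.17 in non-GC and 0.50 and 0.19 in GC cells; 4.78% of all genes were higher in all 4, and Irf2 was 1 of the 7. Over all batches the difference was 0.42 (SE 0.39, adjusted p = 0.993). The 3 genes for IRF2-binding corepressors were all below 0 in GC cells, with a median of -0.29. That is near the median of all genes, -0.25, and only 35.7% of all genes were above 0. The corepressors ran from -0.79 (SE 0.37) for Irf2bpl to -0.092 (SE 0.45) for Irf2bp1. Under upper quartile scaling their median was -0.028. Of the 3, 0 were called and 0 had an unadjusted p under 0.05. Between genotypes their median was 0.22, with 2 above and 1 below 0, against -0.12 and 39.5% above 0 for all genes. The values ran from -0.22 (SE 0.37) for Irf2bpl to 0.28 (SE 0.37) for Irf2bp2. Again 0 were called and 0 had an unadjusted p under 0.05.

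Irf1, induced by interferon-gamma and an activator of antigen presentation genes, ranged from 7.45 to 16.98 FPKM in batches 1 and 2, both ends in Sle1b GC. It was at 14.3 and 13.6 FPKM in Sle1b non-GC, 16.98 and 7.45 FPKM in Sle1b GC, 16.4 and 15.3 FPKM in Ifnar1KO non-GC and 13.7 and 11.99 FPKM in Ifnar1KO GC libraries. In batch 3 it was at 3.22 FPKM in Sle1b GC and listed at 0 in the other 3 libraries. The groups overlapped, and the difference between cell types was 0.16 (SE 0.44, adjusted p = 0.883) with all batches and -0.28 (SE 0.36) in batches 1 and 2, so its sign rested on batch 3. The genotype difference likewise was -0.23 (SE 0.44, adjusted p = 0.993) and 0.17 (SE 0.36) without batch 3. The Irf1 locus (chr11:53770014-53778374, plus strand) is shared in the tables with the row of Gm17334, and reads of the 2 cannot be told apart without strand.

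The genes known as targets of interferon-gamma and IRF1 were counted between cell types in the same way. Of 17 listed, 16 were tested, 4 were above and 12 below 0, where 35.7% of all genes were above 0, with a median of -0.43, or -0.17 under upper quartile scaling. Of these 0 were called and 5 had an unadjusted p under 0.05. B2m, the light chain of MHC class I, had the lowest value of -2.45 (SE 0.52, adjusted p = 0.0832), and Il18bp, a secreted inhibitor of IL-18, the highest of 0.93 (SE 0.48). Between genotypes 3 were above and 13 below 0 with a median of -0.37 against -0.12 for all genes, of which 39.5% were above 0. Of the 16 tested, 0 were called and 3 had an unadjusted p under 0.05. Their extremes were subunits of the immunoproteasome, Psmb9 at -1.16 (SE 0.42) and Psmb8 at 1.01 (SE 0.57).

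Irf5, which acts below MYD88 and endosomal Toll-like receptors and lies in a human lupus risk region, had lower values in Ifnar1KO than in Sle1b wherever it was above 0. In non-GC cells, Sle1b had 23.7 and 22.6 FPKM in batches 1 and 2 and Ifnar1KO 13.7 and 13.6 FPKM. In GC cells, Sle1b had 22.7 and 16.3 FPKM and Ifnar1KO 8.69 and 5.34 FPKM. The 4 Sle1b libraries of these batches were all above the 4 labelled Ifnar1KO, and all 4 libraries of batch 3 were listed at 0. The share of all genes that separate in this way was not computed, so the separation is not read as a trait of Irf5. Within pairs the differences were -0.75 and -0.70 in non-GC and -1.29 and -1.45 in GC cells. Of all genes, 4.74% were lower in Ifnar1KO in all 4 pairs of batches 1 and 2, and 1 of the 7 factors was, Irf5. The mean difference was -0.70 (SE 0.38, adjusted p = 0.993) with batch 3, whose libraries are all at 0, and -1.05 (SE 0.33, adjusted p = 0.997) without it, so it did not pass the test in either.

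Between cell types, Irf5 differed by -0.38 (SE 0.38, adjusted p = 0.625), and by -0.58 (SE 0.33) in batches 1 and 2, with GC lower in all 4 pairs there. The tables place Irf5 (chr6:29526625-29541871 in GENCODE, plus strand) in 1 locus with Tnpo3, a nuclear import receptor on the other strand, and the annotations of these genes overlap by 1045 bases. Tnpo3 was at 28.7 and 42.2 FPKM in Sle1b non-GC and 26.6 and 33.3 FPKM in Ifnar1KO non-GC of batches 1 and 2, and at 32.7 and 53.7 FPKM in Sle1b GC and 29.0 and 27.9 FPKM in Ifnar1KO GC. It too was lower in Ifnar1KO in these 4 pairs, and how far shared reads enter the Irf5 value was not tested.

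Irf7, the factor that amplifies the interferon response and is itself an interferon-induced gene in most cells, varied more between libraries than between groups. Its Sle1b non-GC libraries had 9.21, 4.20 and 0 FPKM in batches 1, 2 and 3, and its Sle1b GC libraries 14.4, 4.68 and 2.09 FPKM. In Ifnar1KO the non-GC libraries had 0.121, 3.52 and 0 FPKM and the GC libraries 15.3, 0.456 and 0 FPKM. The values of 0.121 and 0.456 FPKM correspond to about 2.1 and 2.3 reads, whereas 15.3 FPKM in Ifnar1KO GC of batch 1, the highest of the 12, corresponds to about 142.8 reads. Ifnar1KO was lower in 4 pairs, higher in 1 and at 0 in both libraries of the last; the mean difference was -1.15 (SE 0.60, unadjusted p = 0.0762, adjusted p = 0.993). Without the library Ifnar1KO non-GC of batch 1 it was -0.56 (SE 0.51), and with a pseudocount of 0.1 it was -2.19 (SE 1.05). The effect of cell type in Ifnar1KO was 3.86 in batch 1 and -1.63 in batch 2. The mean over genotypes was 0.76 (SE 0.60, adjusted p = 0.527). It dropped to 0.17 (SE 0.51) without Ifnar1KO non-GC of batch 1 and to 0.31 (SE 0.56) without Ifnar1KO GC of batch 1. From the direct tables alone it was -0.0072, but for this comparison those cover batches 2 and 3 only, so batch 1 was left out.

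Irf7 is strongly expressed in plasmacytoid dendritic cells and other myeloid cells, whose markers varied by library. The 7 plasmacytoid markers summed to 202.8, 115.1 and 17.1 FPKM in Sle1b non-GC, 139.8, 64.9 and 3.37 FPKM in Sle1b GC, 211.6, 109.2 and 23.7 FPKM in Ifnar1KO non-GC and 66.8, 68.2 and 1.36 FPKM in Ifnar1KO GC. In batches 1 and 2 most of these sums came from Ly6d and Tcf4, which B cells express too. Siglech, the defining marker, was at 2.51, 2.98 and 11.0 FPKM in Sle1b non-GC and 7.15, 4.86 and 0 FPKM in Ifnar1KO non-GC. It was at 0.207, 0 and 0.829 FPKM in Sle1b GC, and at 0 in all 3 libraries of Ifnar1KO GC, including the one with the highest Irf7. The 9 macrophage, monocyte and neutrophil markers summed to 165.3 FPKM in Sle1b GC of batch 1, with S100a9, S100a8 and Lyz2 at 69.9, 60.2 and 28.4 FPKM. They summed to 0.0681 to 26.3 FPKM in the other libraries. Irf7 was at its second highest, 14.4 FPKM, in Sle1b GC of batch 1. Its highest value, 15.3 FPKM, was in Ifnar1KO GC of batch 1, where these markers summed to 11.2 FPKM. In Ifnar1KO non-GC of batch 1, which had the sum of 26.3 FPKM, Irf7 was at 0.121 FPKM. What share of Irf7 came from either kind of cell was not tested. Irf7 (chr7:141262706-141266481, minus strand) shares a locus in the tables with Phrf1, whose annotation overlaps it by 45 bases, and Phrf1 was at 26.3 FPKM in Ifnar1KO GC of batch 1 and 14.5 FPKM in that of batch 2.

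Irf3, the constitutively present factor that TBK1 activates, was among the steadiest members in batches 1 and 2. It was at 20.9 and 24.6 FPKM in Sle1b non-GC, 19.0 and 26.8 FPKM in Sle1b GC, 14.6 and 17.6 FPKM in Ifnar1KO non-GC and 20.8 and 15.2 FPKM in Ifnar1KO GC. In batch 3 the values were 4.07, 0.974, 2.36 and 0 FPKM in the same order. Ifnar1KO was the lower one in 5 of 6 pairs, all but GC of batch 1, with a mean difference of -0.53 (SE 0.40, adjusted p = 0.993). The difference between cell types, -0.47 (SE 0.40, adjusted p = 0.566), rested on batch 3 and was 0.067 (SE 0.32) without it. Irf3 (chr7:44997648-45002848, plus strand) overlaps the opposite gene Bcl2l12 by 1065 bases, and Bcl2l12 ranged from 0 to 16.6 FPKM over the 12 libraries.

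The sensors, adaptors and kinases that act on IRF3, IRF5 and IRF7 were mostly below 0 in GC cells. Of 21 listed, 20 were tested, and for the mean of both genotypes 1 was above and 19 were below 0, with a median of -0.59; 0 were called and 2 had an unadjusted p under 0.05. Over all genes 35.7% were above 0 and the median was -0.25; under upper quartile scaling these medians were -0.33 and 0.010. Tlr4, the receptor for bacterial lipopolysaccharide, had the lowest value at -1.66 (SE 0.53, adjusted p = 0.156), and Ikbke, a kinase of IRF3 and IRF7, the highest at 0.18 (SE 0.63). Between genotypes 7 were above and 13 below 0 with a median of -0.19, against -0.12 for all genes, of which 39.5% were above 0. Of the list, 0 were called and 1 had an unadjusted p under 0.05. That was Tlr7, the endosomal RNA sensor, at -1.56 (SE 0.58, adjusted p = 0.993). The highest was the RNA sensor Ddx58 at 0.47 (SE 0.55).

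Irf9 could not be measured by itself. The tables hold 1 row for Irf9 and Rnf31, a ubiquitin ligase subunit next to it on chromosome 14 whose annotation overlaps that of Irf9 by 123 bases on the same strand (locus chr14:55591708-55610030), so every value is the sum over this row. It was at 80.2, 129.2 and 3.53 FPKM in Sle1b non-GC, at 62.4, 227.4 and 2.73 FPKM in Sle1b GC, at 97.3, 182.4 and 1.88 FPKM in Ifnar1KO non-GC, and at 36.5, 506.1 and 10.4 FPKM in Ifnar1KO GC of batches 1, 2 and 3. The highest and the lowest value of batches 1 and 2 both belonged to Ifnar1KO GC. GC was above non-GC in 3 pairs and below in 3, the pair in batch 1 of Ifnar1KO differing by -1.39 and that in batch 2 by 1.47. The mean differences of 0.37 (SE 0.47, adjusted p = 0.711) between cell types and 0.35 (SE 0.47, adjusted p = 0.993) between genotypes were smaller than that spread.

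The chain from the interferon receptor to IRF9 was tested for all 10 listed genes. Between cell types 3 were above and 7 below 0 with a median of -0.76 (-0.50 under upper quartile scaling). Over all genes the median was -0.25 and 35.7% were above 0. Of the 10 genes, 0 were called and 3 had an unadjusted p under 0.05. The lowest was Ifnar1 at -1.24 (SE 0.53, adjusted p = 0.250) and the highest Stat3 at 0.31 (SE 0.42). Stat2, a partner of IRF9, had a value of 0.18 (SE 0.36). Between genotypes 3 were above and 7 below 0 with a median of -0.20, against -0.12 for all genes, of which 39.5% were above 0. Of the list, 0 were called and 0 had an unadjusted p under 0.05. The values ran from Stat2 at -0.68 (SE 0.36) to Stat3 at 0.79 (SE 0.42). By cell type the counts lay on opposite sides: 8 were above and 2 below 0 in non-GC cells (median 0.35; all genes 0.014), and 2 above and 8 below 0 in GC cells (median -0.72; all genes -0.25), with 0 and 1 at an unadjusted p under 0.05. The interaction had a median of -0.82 against -0.26 for all genes, 0 called and 1 with an unadjusted p under 0.05. That gene was Tyk2, a kinase bound to the receptor, at -2.83 (SE 0.93, adjusted p = 0.992).

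**Figure D2:**
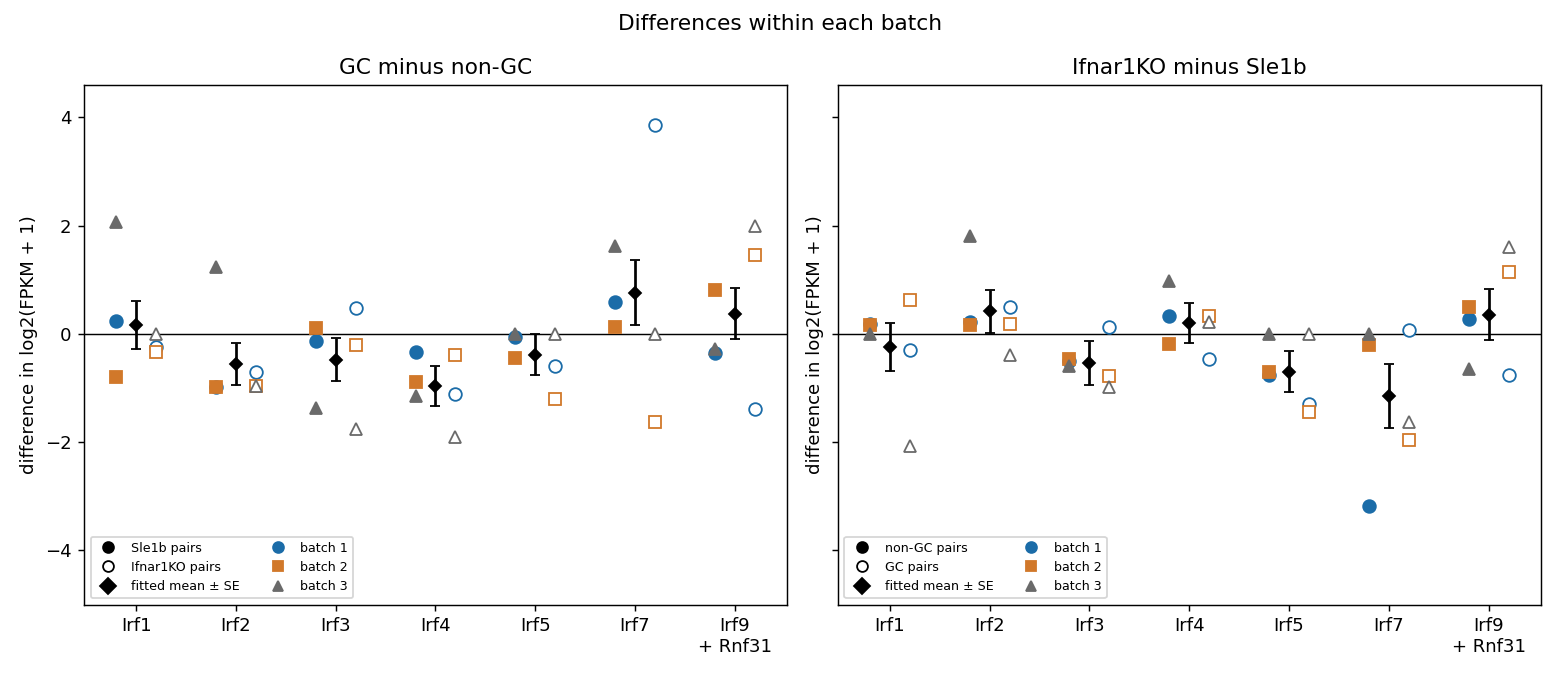
Differences in log2(FPKM + 1) within each batch for GC minus non-GC (left) and Ifnar1KO minus Sle1b (right), with 1 point per pair of libraries (shape and colour, batch; filled and open, the 2 genotypes or cell types) and a diamond for the fitted mean with its SE. Irf4 is at or below -0.33 in all 6 pairs on the left, Irf5 is negative in the 4 pairs of batches 1 and 2 on the right, and Irf7 and the Irf9 row scatter on both sides of 0 on the left.

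The interferon-stimulated genes, which carry the ISRE that IRF9 complexes and IRF7 bind, leaned below 0 in the libraries labelled Ifnar1KO although Ifnar1 did not follow that label. Of 24 listed, 20 were tested. In non-GC cells all 20 of those had values below 0 in Ifnar1KO, with a median of -1.30 against 0.014 for all genes, where 51.3% were above 0, and the list medians in batches 1, 2 and 3 were -1.46, -1.99 and -0.73. In GC cells 4 were above and 16 below 0 with a median of -0.70 against -0.25 for all genes (-0.35 under upper quartile scaling), and the medians by batch were -0.95, -0.97 and 0. Over both cell types 2 were above and 18 below 0 with a median of -1.07 (by batch -1.14, -1.71 and -0.11); 0 were called, while 11 had an unadjusted p under 0.05, with Ifi27l2a lowest at -2.42 (SE 0.62, adjusted p = 0.993) and Ifit2 highest at 0.52 (SE 0.45). The median of the 7 factors in the same comparison was -0.23, and 3 of the 7 were above 0. For all genes the median was -0.12, with 39.5% above 0. Single factors lay on both sides of the median of the 7. Irf7 was lowest at -1.15 (SE 0.60), or -0.56 without Ifnar1KO non-GC of batch 1, where it rests on about 2.1 reads. Irf5 was at -0.70 (SE 0.38). The highest was Irf2 at 0.42 (SE 0.39). The difference between the lists was not tested. Between cell types the interferon-stimulated genes had 3 above and 17 below 0, with a median of -0.59 against -0.25 for all genes. Of the list, 0 were called and 5 had an unadjusted p under 0.05. The values ran from Trim30a at -1.79 (SE 0.53) to Isg20 at 0.51 (SE 0.41). By genotype, 2 were above and 18 below 0 in Sle1b (median -0.96; all genes -0.11), and 7 above and 13 below 0 in Ifnar1KO (median -0.23; all genes -0.39), where upper quartile scaling turned the median to 0.19. For the mean of both it was -0.33 under that scaling.

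**Figure D3:**
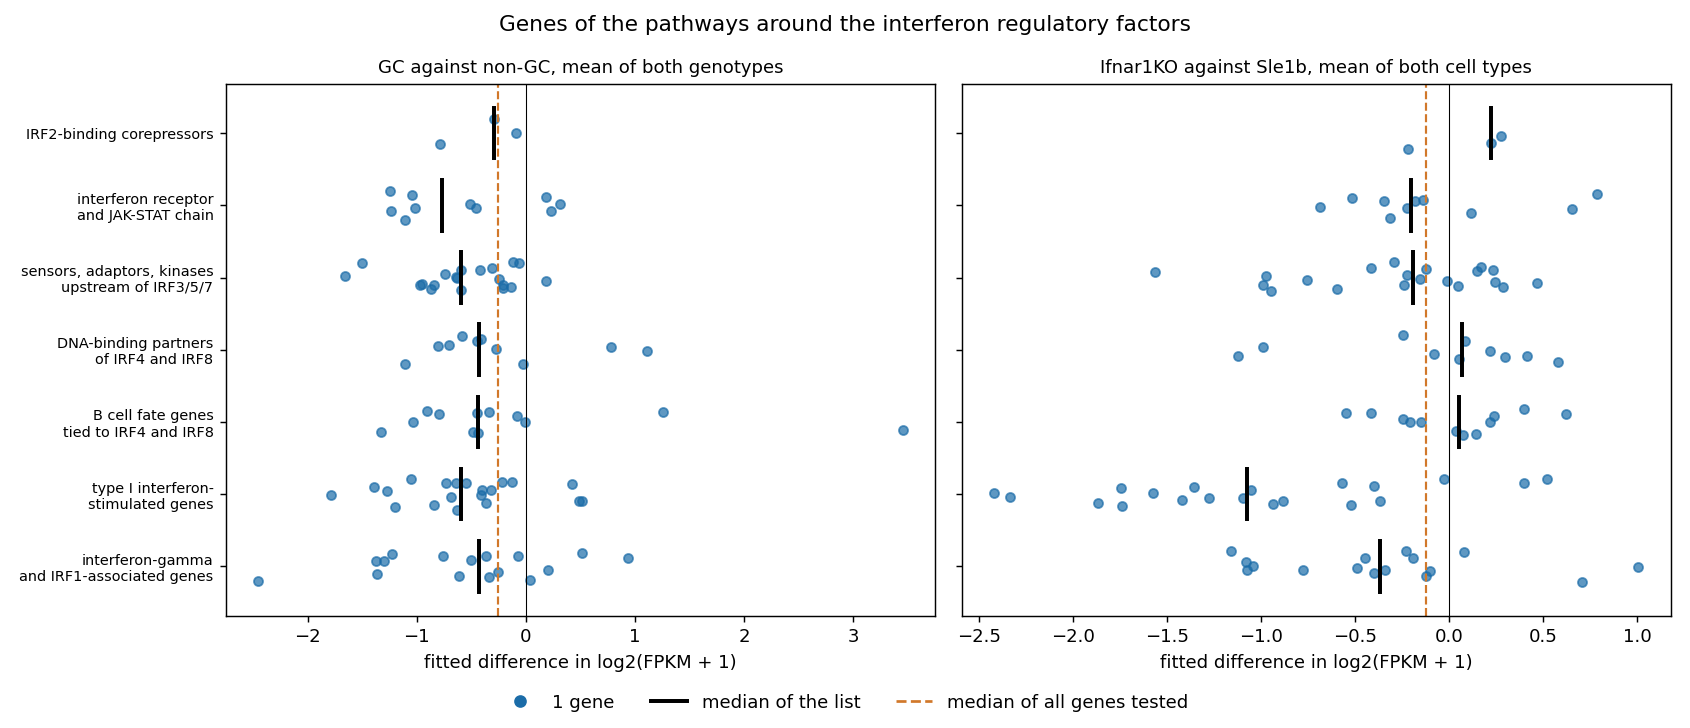
Fitted differences in log2(FPKM + 1) of the tested genes of 7 lists around the interferon regulatory factors, for GC against non-GC cells (left) and Ifnar1KO against Sle1b (right); each point is 1 gene, the thick bar is the median of the list and the dashed line the median of all genes tested. On the right the interferon-stimulated genes have a median of -1.07 against -0.12 for all genes, and on the left 19 of 20 sensors, adaptors and kinases lie below 0.

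The factors were also compared with every other tested gene by Pearson's r of batch-centred log2(FPKM + 1) over the 12 libraries, given as a description, since the libraries share batches and depth. The highest values were 0.98 for Irf4 with Hbp1, 0.98 for Irf5 with Srm and 0.97 for Irf1 with Bnip3l, and those next in order were Prkcb and Tax1bp1 for Irf4, Dbr1 and Cc2d1b for Irf5 and Gm13054 and Llgl1 for Irf1. Irf3 was most like 1700030J22Rik (0.93), 2410018L13Rik and Rpl41, Irf2 most like Gm38142 (0.91), Lyrm9 and Runx3, and the Irf9 row most like RP23-306G1.11 (0.92), Rgs10 and Gnas. Irf7 had the weakest match, 0.81 with Scnm1, followed by Spaca6 and Gphn. Between the factors themselves r ran from -0.63 (Irf3 and the Irf9 row) to 0.48 (Irf2 and Irf4).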

How the data were processed

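Per the labels' protocols, the libraries came from sorted B cells by SMARTer ultra-low-input cDNA synthesis and Nextera XT. The submitters' processing notes name Cufflinks 2.2.1, Cuffdiff, TopHat2 2.0.9, Bowtie2 2.1.0 and CASAVA, and the builds GRCm38 and mm10. The authors deposited FPKM values in 17 tables, each pairing 2 libraries of a batch and normalized on its own; the table of Sle1b non-GC against GC of batch 1 was not used here. Of 506504 loci, 461263 carried no gene name and 9 named items with a failed estimate were left out. Depth was read only from the worth of 1 read, and no count test was run. An exact 0 may be an estimate that failed.

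Values of a library in its different tables differed by 1 factor (at least 99.99% of loci within 1%), so libraries were joined within a batch by least squares of these factors, leaving at most 0.17 on the log2 scale. Genes at 1 FPKM or more in at least 3 libraries (14607) were tested on log2(FPKM + 1) with limma 3.58.1 in R 4.3.3 (two-sided, trend, batch as a block, 6 residual degrees of freedom, Benjamini-Hochberg adjustment, threshold 0.05), after the procedure was tested on simulated data. The batch, taken from the deposited tables, equals the replicate number; deviations from group means within a batch correlated at 0.289, 0.401 and 0.524 or more, but reached 0.455 between batches 1 and 2. No source states that the libraries keep strand. The factors and gene lists were chosen with earlier results of these data known. All 7 factors are described, with 3 most alike genes each, and each list is given by its counts and its highest and lowest gene, of which some are not reported here. The alternatives were another pseudocount, filters, scalings, sample weights, direct tables, no trend, no block, and leaving out libraries or batches. Direct tables are those that pair the compared libraries. For GC against non-GC in Sle1b and for the mean of both genotypes they cover batches 2 and 3 only. Promoter letters come from RefSeq (GRCm38.p6) and gene spans from GENCODE.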

Additional observations from a re-analysis of the deposited data

How the results depend on the processing

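In 1225 re-estimates of the factors (25 alternatives for each of 49 results) 1138 kept the sign and 87 reversed it; none passed, and the lowest adjusted p was 0.0821 (Irf2, GC against non-GC, without batch 3 and with the same genes). Irf4, Irf2 and Irf5 stayed below 0 for GC against non-GC (mean of both genotypes) in all 25 (Irf4 from -1.36 to -0.68, Irf2 from -0.90 to -0.27, Irf5 from -0.60 to -0.12). For Ifnar1KO against Sle1b (mean of both cell types), all factors but Irf1 kept their sign in all 25. Irf3, Irf5 and Irf7 stayed below 0 (-0.98 to -0.28, -1.05 to -0.51 and -2.19 to -0.56). Irf2, Irf4 and the Irf9 row stayed above 0 (0.12 to 0.62, 0.0069 to 0.39 and 0.11 to 0.80). Without the replicate block, which pairs libraries by batch, Irf4 differed by -0.96 (SE 1.21), and no factor changed its side of the threshold. The scaling to 1 median of genes above 1 FPKM was chosen after seeing the data. Upper quartile scaling moved the median of all genes by 0.26 (GC) and 0.19 (genotype).

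Reversed values were, for GC against non-GC in Sle1b, Irf2 at 0.13 without batch 1, 0.13 without batch 2 and 0.12 from the direct tables (batches 2 and 3 only), Irf9 at -0.32 without batch 2 and Irf1 at -0.28 without batch 3. In Ifnar1KO they were Irf7 at -0.82 without batch 1, Irf3 at 0.14 without batch 3, and Irf1 at 0.23 under upper quartile and 0.053 under median scaling. For the mean of both genotypes they were Irf9 at -0.011 without batch 2, Irf1 at -0.28 and Irf3 at 0.067 without batch 3, Irf1 at -0.094 with sample weights and Irf7 at -0.0072 from the direct tables (batches 2 and 3 only). For Ifnar1KO against Sle1b in non-GC cells, Irf9 was at -0.033 with a pseudocount of 0.1, -0.079 without batch 1, -0.19 without batch 2 and -0.023 from the direct tables. In GC cells, Irf2 was at -0.10 without batch 1, Irf4 at -0.12 without batch 2 and -0.063 without batch 3, and Irf1 at 0.16 without batch 3; over both cell types Irf1 was at 0.17 without batch 3. For the interaction, Irf3 was at 0.12 without batch 2, 0.15 without batch 3, 0.29 under upper quartile and 0.0875 under median scaling; Irf7 was at 0.82 without batch 2, 0.75 without batch 3, 0.74 with sample weights, 0.28 and 0.027 under these scalings and 0.088 from the direct tables; Irf2 was at 0.14 and Irf9 at -0.19 without batch 3. The cause was not tested.

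Leaving out 1 library at a time, the ranges that crossed 0 were, for GC against non-GC in Sle1b, -0.28 to 1.15 (Irf1), -0.82 to 0.089 (Irf2), -0.46 to 0.049 (Irf5) and -0.35 to 0.39 (Irf9); in Ifnar1KO, -0.52 to 0.061 (Irf1), -0.93 to 0.018 (Irf3) and -0.43 to 1.56 (Irf7); for the mean, -0.24 to 0.48 (Irf1). For genotype in non-GC cells they were -0.14 to 0.45 (Irf1), -0.0103 to 0.67 (Irf4), -1.94 to 0.044 (Irf7) and -0.46 to 0.43 (Irf9); in GC cells, -1.22 to 0.21 (Irf1), -0.13 to 0.49 (Irf2) and -0.22 to 0.27 (Irf4); over both, -0.55 to 0.16 (Irf1). For the interaction they were -1.34 to 0.092 (Irf1), -0.47 to 0.48 (Irf3), -0.64 to 0.0405 (Irf4) and -1.21 to 0.77 (Irf7).

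Counts of genes called over all genes moved more. For the mean GC comparison (4 genes) they were 1 with a pseudocount of 0.1, 1 without a filter, 22 with 1 FPKM in at least 6 libraries, 0 without the replicate block, without batch 1, without batch 2 and from the direct tables (which lack batch 1 here), 1 without batch 3 with the same genes, 562 without batch 3 with the filter redone (12257 genes), 404 with sample weights, 20 under upper quartile scaling, and 1 to 10 leaving out 1 library. In Sle1b (0 genes) they were 2 with the stricter filter, 7 without batch 3 with the filter redone, 3 with sample weights, and 0 to 1 leaving out 1 library. In Ifnar1KO (1 gene) they were 2, 38 and 0 to 2 for the stricter filter, batch 3 left out with the filter redone and 1 library left out. They were 0 without the replicate block, without batch 1 or batch 2, without batch 3 with the same genes, and from the direct tables. For genotype (0 genes) they were 8 in non-GC cells with sample weights and, in GC cells, 1 without batch 3 with the filter redone and 0 to 1 leaving out 1 library, as for the interaction. None of these counts includes a factor.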
